A study of Arabidopsis thaliana with 3 samples.

Results

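Among the genes with a mapped N6-methyladenosine (m6A) site in Arabidopsis thaliana seedlings, 37 genes carried 25 or more sites each and are described here. They were chosen by counting rows: a gene on chromosomes 1 to 5 was a member when its own identifier, and no other, named at least 25 adenosines of the table. The 37 genes held 1034 of the 120269 listed sites, and 1034 of the 116179 nuclear sites named with a single gene. They were 0.244% of the 15180 genes with such a site. Because the rule counted listed sites, and listing depends on level and depth, every level, depth and site number below is a description with no test.

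The material was polyadenylated RNA of 7-day-old seedlings of the Col-0 accession grown on plates at 22 °C under 16 h of light, in 3 biological replicates that form 1 group. In CAM-seq, the chemical assay used, unmodified adenosine is deaminated and read as G, while m6A is left as A. The m6A level of a site is the share of its reads left unconverted, in percent. The deposited counts combine the 3 replicates, so no spread between plants or libraries can be given. Intervals in brackets are Wilson 95% intervals and cover counting error only. Depth at the 1034 sites ran from 20 to 46900 reads, with a median of 350.5.

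m6A is placed on messenger RNA in the nucleus by a methyltransferase complex that includes the catalytic subunit MTA, and it is read by YTH-domain proteins such as the ECT proteins of plants. Its best-known sequence context is the RAC core, where R is A or G and the A in the middle is methylated. In plant messenger RNA the mark is known mostly from the last exon and the 3′ UTR, near the stop codon.

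Windows of 29 bases around the highest-level site of 4 of these genes show how sites with very different levels stand side by side. Listed adenosines are in capitals, in RNA letters read 5′ to 3′ on the transcript, from the RefSeq copy of TAIR10.
AT4G08280 (chr4:5231950-5231978, plus strand, 3′ UTR): AcucauuaucucggAcuaaaAuauuuccu
AT3G42050 (chr3:14228584-14228612, minus strand, 3′ UTR): aaAgAguaaaagAgAccuugaagaAgaAu
AT3G56210 (chr3:20852513-20852541, minus strand, 3′ UTR): cAcuuguaugcuaaAcaAuaAuuuuguuu
RCA (chr2:16570804-16570832, minus strand, 3′ UTR): uuaugauguAcaAcAcauugguaauuuaa
The middle base of each window is the highest-level site of its gene. It had a level of 99.3% at 305 reads in AT4G08280, 97.6% at 83 reads in AT3G42050, 90.1% at 282 reads in AT3G56210 and 15.8% at 20234 reads in RCA. In the first 3 genes this adenosine sits in a RAC core, whereas in RCA it sits in CAC.

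The most crowded windows of the same length are shown because they show which adenosines stood closest together.
RCA (chr2:16572652-16572680, minus strand, coding sequence, 12 sites): AAgaAgAcAAAcaaAccgauggAgAcAgA
c-NAD-MDH1 (AT1G04410, chr1:1189204-1189232, minus strand, 3′ UTR, 9 sites): gAuuugguuuAcccaugaaaAgAAgAAAA
AT2G43160 (chr2:17953563-17953591, plus strand, 3′ UTR, 7 sites): gcAuAuaauuugAuAuauAcAcauucAcu
MGP1 (chr2:9320226-9320254, minus strand, 3′ UTR, 7 sites): ugAuaAuggugAucAcuggAAuuugagAu
The 12 sites of the RCA window all had levels between 2.14% and 8.49%. In the window of c-NAD-MDH1, a malate dehydrogenase, one adenosine at the end of a purine run reached 57.4% (53.8% to 60.8%, 755 reads), while the adenosine directly before it had 3.46% (2.37% to 5.02%, 752 reads). In the AT2G43160 window the ACACA site at 87.8% (82.4% to 91.8%, 189 reads) stood 2 nt after an AUACA site at 43.6% (36.6% to 50.9%, 181 reads), and the 4 sites upstream of both lay between 4.27% and 7.17%.

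Sites of the 37 genes had lower levels than those of genes with fewer sites. The mean level was 24.9% ± 26.4 in the 37 genes and 31.9% ± 26.7 in genes with fewer sites (SD over 1034 and 115145 sites). The median was 12.6% in the 37 genes, against 21.8% in the others. A level above 50% was found at 184 sites of the 37 genes (17.8%), where the share over all nuclear single-gene sites was 24.1%. A level under 10% was found at 441 sites (42.6%), against 24.5% over all nuclear single-gene sites. Depth differed in the same comparison, with a median of 350.5 reads in the 37 genes and 108 reads in the others. Depth sets what can be listed: a site with 20 reads needed a level of 20% to be listed, one with 100 reads 6.0%, one with 500 reads 2.8% and one with 5000 reads 1.48%. The part of depth in the lower levels was not tested. The depth minima in the closing section cannot show it, because they change the set of genes and give no value for genes with fewer sites.

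**Figure D1:**
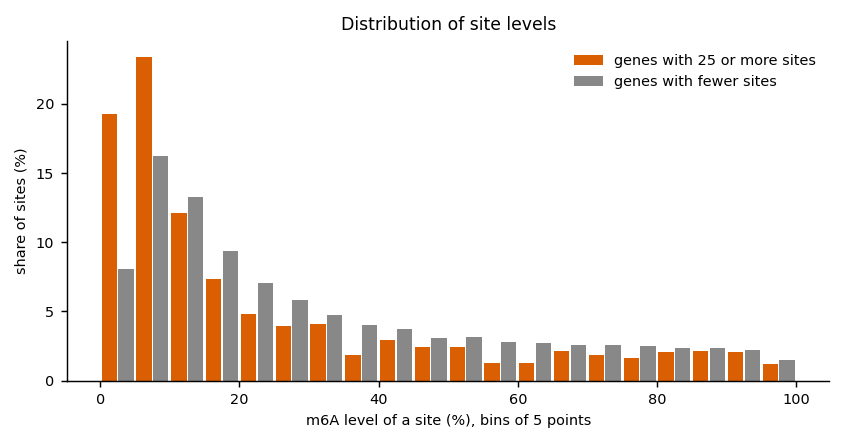
Share of sites (%, vertical axis) by m6A level in bins of 5 points (horizontal axis) for genes with 25 or more sites (orange) and genes with fewer sites (grey). The orange bars are taller below 10%, where 42.6% of the sites of the 37 genes lie, and shorter above 50%, where 17.8% lie.

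A level of 20% or more passed the listing limit even at the smallest depth, and the 37 genes held 392 such sites (37.9% of their sites, against 53.0% over all nuclear single-gene sites). Counted per gene, these sites ran from 0 in RCA to 23 in AT4G08280, with a median of 11. No gene of the whole table had 25 of them. The summed level of a gene is the mean number of unconverted listed adenosines per transcript if all sites were read on one molecule. It ran from 1.27 in RCA to 14.6 in AT4G08280 with a median of 7.46. In AT4G08280 both the count and the sum include sites of a group of 12 that is intronic in 2 of its 3 annotated transcripts.

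Set beside the other genes in order of site number, the 37 genes were the end of a gradual series in 3′ UTR length and depth, but not in level. Genes with 1, 2 to 4, 5 to 9, 10 to 14, 15 to 19, 20 to 24 and 25 or more sites had median 3′ UTR lengths of 230, 249, 258, 282, 321, 363 and 426.5 nt. Their median depths, each gene taken at the median over its sites, were 39, 48, 77, 128, 217, 282 and 479.5 reads in that order. The median of the gene means of level was 16.9% in genes with 1 site, highest at 33.2% in genes with 10 to 14 sites, and 27.9% in the 37 genes. At the threshold itself, the 7 genes with 25 sites had gene means from 12.7% to 34.8%, and the 22 genes with 24 sites had gene means from 6.80% to 45.9%. Median depth was 554 reads in the 7 genes with 25 sites and 197 reads in the 22 genes with 24, each as the median over genes.

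**Figure D2:**
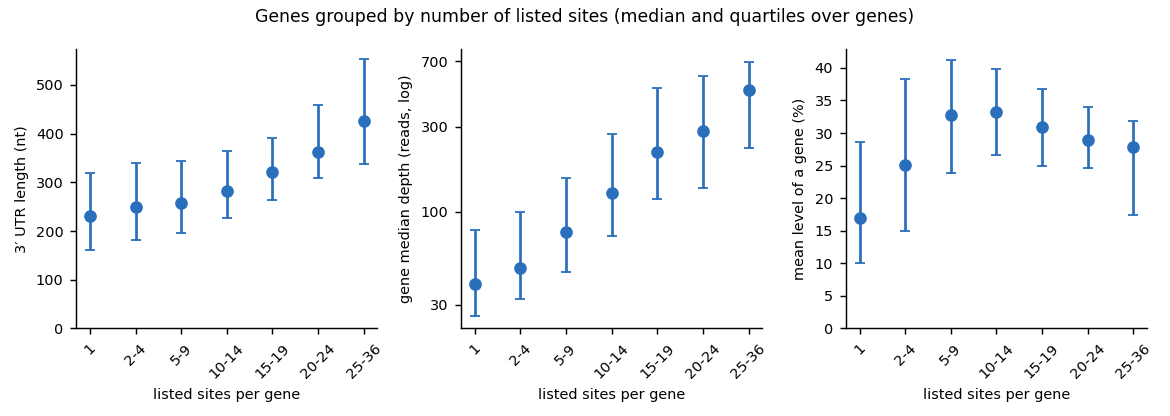
Genes grouped by number of listed sites (horizontal axis), with the median (point) and quartiles (bar) over genes of 3′ UTR length (nt), gene median depth (reads, log axis) and gene mean m6A level (%). Length and depth are highest in the 37 genes, at 426.5 nt and 479.5 reads, and the mean level is highest in genes with 10 to 14 sites, at 33.2%.

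Within the 37 genes, the gene mean ran from 4.25% in RCA to 43.0% in AT4G08280. Sites within a gene were spread widely, and 33 of the 37 genes had at least 1 site above 50% (67.0% of all 15180 genes did), and 18 had a site above 90% (20.5% of all genes). The 4 genes without a site above 50% were RPP4, RCA, AT3G60750 and PSBO1. Genes with more sites also had a higher top site, so the shares over all genes are not matched. The median of the highest level of a gene was 16.9% in genes with 1 site and 72.7% with 5 to 9. It was 91.0% with 20 to 24 sites and 89.2% in the 37 genes. Across the 37 genes, median depth and mean level had a Spearman correlation of -0.524, and median depth and the number of sites under 5% one of 0.728. These are descriptions over genes that share the same libraries and the same depth-dependent listing.

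**Figure D3:**
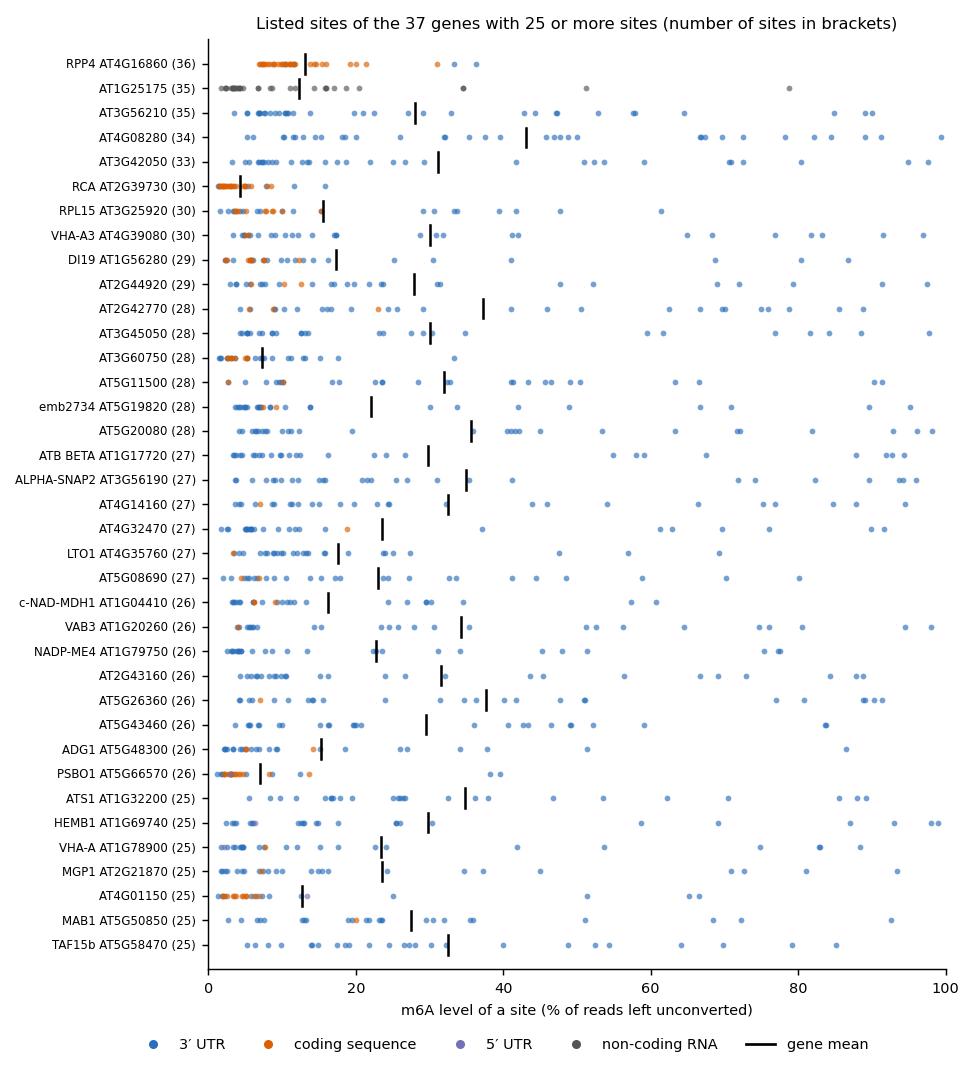
m6A level (%, horizontal axis) of every listed site of each of the 37 genes (rows, number of sites in brackets), coloured by transcript region, with the gene mean as a black bar. Most rows spread from a few percent to above 50%, and the rows of RPP4, RCA, AT3G60750 and PSBO1 stay below that value.

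The 4 members that encode parts of the vacuolar H+-ATPase, the proton pump that acidifies the vacuole and other compartments, had gene means of 23.4% to 34.3%. AT3G42050, which encodes subunit H, carried 33 sites within chr3:14228506-14228841, all in its last exon and all in the 3′ UTR, from 5 to 340 nt after the stop codon. Its levels ran from 3.14% to 97.6% with a median of 17.4%. All 10 RAC adenosines of its 351-nt 3′ UTR were listed, as were 33 of its 93 adenosines. Its 10 RAC sites had a mean of 53.7% and the other 23 a mean of 21.3%. A pair 2 nt apart, ACACA at 26.6% (24.0% to 29.5%, 987 reads) and AGACA at 94.9% (93.3% to 96.1%, 972 reads), shows that levels changed sharply over a very short distance. Depth changed along this 3′ UTR too: in AT3G42050 it was 1070 reads at 219 nt after the stop codon, 83 reads at 248 nt, where the level was 97.6%, and 388 reads at 311 nt. Whether the authors' removal of reads with several unconverted adenosines contributed to that dip was not tested.

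The other pump genes also had most of their sites in the last exon. VHA-A3 (AT4G39080), a subunit of the membrane sector at the vacuole, had 30 sites, of which 28 lay in the 3′ UTR, with a mean of 30.04% and a highest site of 97.0% (95.4% to 98.0%, AAACG, 665 reads). VAB3 (AT1G20260), a B subunit of the peripheral sector, had 26 sites with a mean of 34.3% and a highest site of 98.0% (405 reads). VHA-A (AT1G78900), the catalytic A subunit, had 25 sites with a mean of 23.4%, and its highest site was GUACA at 88.3% (1655 reads), outside RAC. Sites of VHA-A spanned 4709 nt because 1 of the 25 lay in the 5′ UTR. The other 24 lay in the last exon.

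AT4G08280, a thioredoxin superfamily member, had the highest mean level of the 37 genes, 43.0% ± 28.8 (SD over 34 sites), and 11 of its sites were above 50%. Its GGACU site at chr4:5231964, in exon 3 of 3 of the transcript used, was the highest-level site of all, with 303 of 305 reads unconverted (99.3%, 97.6% to 99.8%). Its sites fell into 2 groups. The first 12 lay from 54 to 222 nt after the stop codon at depths of 20 to 128 reads, and the other 22 lay from 716 to 994 nt at depths of 34 to 445 reads. Mean levels of the groups were 41.8% and 43.7%. No site was listed in the 494 nt between them on the transcript used, a stretch with 129 adenosines, 14 of them in RAC. The annotation gives 3 transcripts of AT4G08280, and in 2 of them all 12 sites of the first group are intronic. In those 2 transcripts the second group begins 107 nt after the stop codon, and the GGACU site lies at 159 nt instead of 768 nt. How much of the unlisted stretch is also intronic in them was not counted.

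The transcript model mattered in other genes as well. Of the 37 genes, 23 have more than 1 annotated transcript. Only 867 of the 1034 sites lie in exons of every transcript of their gene. The count was 19 of 26 sites in AT5G43460, 16 of 35 in AT3G56210 and 0 of 26 in AT2G43160. An intron of at least 1 transcript held 64 sites in 6 genes. AT1G25175 held 27 of these 64 sites, and AT3G45050 and AT4G08280 held 12 each. The distance to the stop codon differed between transcripts at 322 sites, whereas the region itself (coding or untranslated) differed at 14. AT5G43460, annotated as similar to an HR-like lesion-inducing protein, had 19 sites up to 237 nt after the stop codon with a mean of 30.2%. Another 7 sites in its last exon, from 568 nt on, had a mean of 27.6%. The 331 nt between held 10 RAC adenosines, none listed. AT3G56210, an ARM repeat protein, had 16 sites up to 285 nt and 19 from 608 nt on, with means of 31.7% and 24.9%. Depth at unlisted adenosines is not in the table, so an unlisted stretch can be one without reads.

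**Figure D4:**
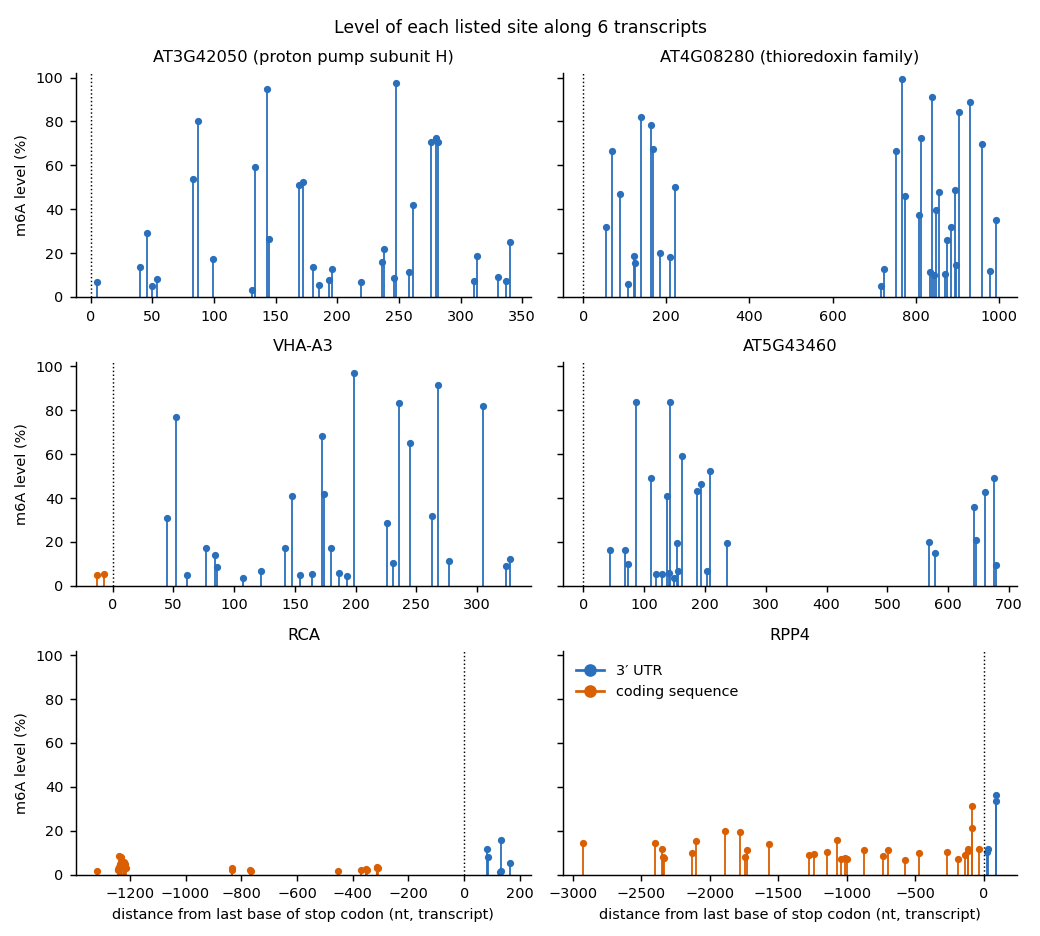
m6A level (%, vertical axis) of each listed site against its distance from the last base of the stop codon on the transcript used (nt, horizontal axis) for AT3G42050, AT4G08280, VHA-A3, AT5G43460, RCA and RPP4, with 3′ UTR sites in blue and coding-sequence sites in orange. High sites stand among low ones after the stop codon, AT4G08280 and AT5G43460 show an empty stretch, and the coding-sequence sites of RCA and RPP4 are low.

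The 10 members that encode plastid proteins had gene means from 4.25% to 34.8%. RCA (AT2G39730), rubisco activase, which restores the activity of the carbon-fixing enzyme, had the lowest mean, 4.25% ± 3.28 (SD over 30 sites), and no site of at least 20%. It also held the deepest site, GGAUU at chr2:16570869, 82 nt into the 3′ UTR in the last of 7 exons, with 5436 of 46900 reads unconverted (11.6%, 11.3% to 11.9%). Only 6 of its 30 sites were in the 3′ UTR, with a mean of 7.22%, and the other 24 were in the coding sequence, with a mean of 3.50%. A CAACA site of RCA, in the RAC core, had 1.44% (1.29% to 1.61%) at 20820 reads, 2 nt from the ACACA site at 15.8%. The highest level in RCA was thus outside the RAC core.

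PSBO1 (AT5G66570), a subunit of the oxygen-evolving complex of photosystem II, had 26 sites with a mean of 6.97%. Its 12 sites in the 3′ UTR included UAACA at 39.6% (39.0% to 40.2%, 25300 reads), AAACA at 38.2% (36.4% to 40.02%, 2747 reads) and the lowest level with at least 100 reads among the 1034 sites. That last site, UGAUU at chr5:26570148, had 542 of 45685 reads unconverted (1.19%, 1.09% to 1.29%). The 13 coding-sequence sites of PSBO1 lay between 2.08% and 13.6%. AT3G60750, a transketolase of the carbon-fixation cycle, had 28 sites with a mean of 7.25%, and 16 of them were in RAC, the most of the 37 genes by number. Its highest site was AAACA at 33.3% (27.2% to 40.1%, 201 reads).

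AT4G01150, annotated as similar to the thylakoid-curvature protein CURT1A, had 12 sites in the 3′ UTR and 12 in the coding sequence. The 3′ UTR sites ran from 1.28% to 66.5% with a median of 7.75%, 3 of them above 50% and 7 under 10%, and the highest was AAACU at 66.5% (65.5% to 67.5%, 8059 reads). The coding-sequence sites lay between 1.97% and 6.91%. RPL15 (AT3G25920), ribosomal protein L15 of the plastid, had 30 sites with 19 in the 3′ UTR at a mean of 20.4%, and its highest site was AGAUA at 61.4% (57.8% to 64.8%, 733 reads). HEMB1 (AT1G69740), an enzyme of tetrapyrrole and chlorophyll synthesis, reached 99.0% (98.3% to 99.4%, 1472 reads) at AGACU and 98.0% (96.7% to 98.8%, 751 reads) at GGAUU, which is outside RAC. ATS1 (AT1G32200), the plastid glycerol-phosphate acyltransferase, had the highest plastid mean, 34.8%, at a median depth of 72 reads. NADP-ME4 (AT1G79750), a NADP-malic enzyme, had the most compact set: 26 sites within 274 nt of its 3′ UTR, where 26 of 73 adenosines were listed. ADG1 (AT5G48300), the small subunit of ADP-glucose pyrophosphorylase in starch synthesis, and LTO1 (AT4G35760), a thylakoid thiol oxidoreductase, had means of 15.2% and 17.5%.

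The 4 members of mitochondrial energy metabolism had means between 23.0% and 27.4%. MGP1 (AT2G21870), a mitochondrial ATP synthase subunit, was the deepest of the 37 genes by median depth, 1796 reads, and AAACG at 93.4% (92.4% to 94.3%, 2559 reads) was its highest site. AT4G32470, annotated as a 14-kDa ubiquinol oxidase subunit, followed with a median of 1591 reads, and its highest site was UUACA at 91.7% (90.5% to 92.8%, 2242 reads). MAB1 (AT5G50850), a subunit of mitochondrial pyruvate dehydrogenase, reached 92.6% at AAACC, and AT5G08690, an ATP synthase subunit, reached 80.2%. The 3 members of vesicle traffic, AT4G14160 (Sec23/Sec24 family, coat of transport vesicles), ALPHA-SNAP2 (AT3G56190, recycling of membrane-fusion complexes) and AT2G43160 (ENTH/VHS family), had means of 31.6% to 35.0%. AT4G14160 had 26 of its 72 3′ UTR adenosines listed but only 2 RAC adenosines there, both listed, and its highest site was AUACA at 94.5% (219 reads).

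The other 16 genes were not grouped by role. AT5G26360, a subunit of the cytosolic chaperonin, had a mean of 37.7%, AT2G42770 (a peroxisomal membrane protein family member) 37.3%, and AT5G20080 (an FAD/NAD(P)-binding oxidoreductase) 35.6%. All 11 RAC adenosines of the AT2G42770 3′ UTR were listed. AT5G20080 had all 28 sites in the 3′ UTR and a highest site of 98.2% (96.4% to 99.1%, 393 reads). AT2G44920 reached 97.5% at CUACU (95.8% to 98.6%, 526 reads), AT3G45050 reached 97.8% at AGACU (92 reads), and AT5G11500 reached 91.4% at GGAUU (324 reads). DI19 (AT1G56280), a drought-induced zinc-finger protein, had 29 sites with a mean of 17.4%, and AUACA at 86.7% (4187 reads) was its highest. TAF15b (AT5G58470) had the longest 3′ UTR, 1151 nt, with 25 of its 326 adenosines listed at a median depth of 106 reads. emb2734 (AT5G19820) had the longest span, 5428 nt, although 27 of its 28 sites lay in the last exon.

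RPP4 and AT1G25175 differed from the rest in kind. RPP4 (AT4G16860), a TIR-NBS-LRR immune receptor known for resistance to downy mildew, had the most sites, 36, of which 32 were in the coding sequence. It had the lowest median depth, 58 reads, at which the lowest listable level is 8.62%, and its median level was 10.9%. Its highest site was GUACA at 36.4% (22.2% to 53.4%, 33 reads). RPP4 belongs to a cluster of similar genes, and 3 of its sites have a 31-base context that is also listed in AT4G16857, AT4G16920 or AT4G16950. How reads were assigned among them was not tested.

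AT1G25175 is annotated as non-coding RNA and had 35 sites with a median of 4.68% and a highest site, AGACU, of 78.7% (73.4% to 83.2%, 268 reads). Of these sites, 17 have a context also listed elsewhere (2.80% of the sites of the 37 genes have one, and 0.743% of all nuclear single-gene sites). The 12 contexts shared with AT1G25098 had a mean of 18.7% in AT1G25175 and 17.96% in AT1G25098, with a median absolute difference of 0.658 points. AT3G56210 shared 7 contexts with AT4G04223, with means of 25.2% and 24.4%. How reads of equal sequence were divided between such positions is not given in the sources used here.

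By region, 858 of the 999 sites on coding transcripts of the 37 genes lay in the 3′ UTR (85.9%, against 92.4% over all genes) and 137 in the coding sequence (13.7%, against 7.03%). Every site was in the 3′ UTR in 12 of the 36 coding members, against 67.5% of all coding genes with a site, many of which have few sites, and 45.9% of the 222 coding genes with 20 to 24 sites. The 3′ UTR sites had a mean of 28.4% in the 37 genes and 33.2% in the others. Coding-sequence sites had a mean of 7.10% ± 4.96 (SD over 137 sites in 23 genes) in the 37 genes and 16.3% in the others, and none of the 137 exceeded 31.03%. The window from 20 nt before to 180 nt after the end of the stop codon held 43.6% of the sites in the 37 genes and 72.2% in the others. Sites within 50 nt after the stop codon had a mean of 17.7% in the 37 genes (71 sites in 31 genes) and 27.05% in the others. Sites more than 600 nt after it had a mean of 34.2% in the 37 genes (50 sites in 5 genes) and 34.1% in the others. Of these 50 sites, 22 were in AT4G08280 and 19 in AT3G56210, where the distance depends on the transcript chosen.

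The coding-sequence sites were concentrated in 5 genes: RPP4 with 32, RCA with 24, PSBO1 with 13, AT4G01150 with 12 and RPL15 with 11. At 71 of these 92 sites (77.2%) the level was at most 1.5 times the lowest level listable at that depth, against 53.1% of the coding-sequence sites of all genes and 15.9% of the 3′ UTR sites of the 37 genes. RAC cores held 8 of the 92 (8.70%), against 56.1% of the coding-sequence sites of all genes, and 18 of the 45 coding-sequence sites of the other member genes. A run of 5 purines centred on the site was found at 36 of the 92 (39.1%), against 10.3% of coding-sequence sites of all genes. That run was present at 9 of 12 coding-sequence sites in AT4G01150, 9 of 13 in PSBO1, 6 of 11 in RPL15, 11 of 24 in RCA and 1 of 32 in RPP4. In the crowded RCA window shown above, depth was 1273 reads at one edge, 190 reads inside and 1338 reads at the other edge. A like dip stood in PSBO1 (AT5G66570), where depth was 1492 reads at chr5:26569691, 714 reads at 26569695 and 1844 reads at 26569700. The cause of these dips was not tested.

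**Figure D5:**
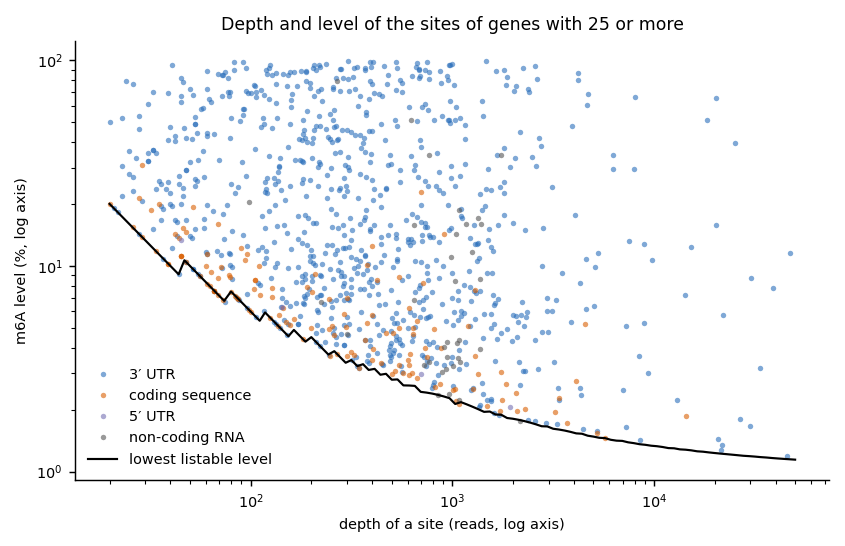
Depth (reads, log axis) and m6A level (%, log axis) of each site of the 37 genes by transcript region, with the lowest listable level at each depth as a black line. Coding-sequence sites (orange) lie close to the line, 70.1% of them at no more than 1.5 times its value, while 3′ UTR sites reach the top at most depths.

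RAC cores made up 275 of the 1034 sites (26.6%, against 39.4% over all nuclear single-gene sites). They made up 60.7% of the sites of genes with 1 site and 30.1% in genes with 20 to 24. Their levels were close to those of other genes: AAC sites had a mean of 41.2% ± 31.5 (SD, 184 sites) in the 37 genes and 44.8% in the others, and GAC sites 45.6% ± 34.0 (SD, 91 sites) and 44.1%. A level above 50% was reached by 114 of the 275 RAC sites (41.5%, against 41.7% of all RAC sites) and by 70 of the 759 other sites (9.22%, against 12.7%). A level above 90% was reached by 26 RAC sites (9.45%, against 7.74% of all RAC sites) and by 7 other sites (0.922%, against 0.945%). The purine-flanked GAA, AAA and AAG sites made up 3.48%, 2.80% and 6.38% of sites in the 37 genes and 0.611%, 0.432% and 2.96% in the others. Their means in the 37 genes were 6.43%, 9.23% and 8.27%. Most of the GAA and AAA sites were coding-sequence sites of the 5 genes with 10 or more of them, so these shares do not hold for every member. In 36 of the 37 genes the mean of RAC sites was above that of the other sites, with RPP4 (11.2% and 13.3%) as the exception. The same order held in 86.6% of all genes with both kinds of site and in 213 of 220 genes with 20 to 24 sites.

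Counted from the sequence instead of from the list, 858 of the 4881 adenosines in the annotated 3′ UTRs of the 36 coding members were listed (17.6%), against 7.70% in genes with fewer than 25 sites. For RAC adenosines the shares were 236 of 393 (60.1%) in the 37 genes and 36.7% in genes with fewer sites. In genes with 20 to 24 sites the RAC share was 62.4%, slightly above that of the 37 genes, and the share of other adenosines was 12.9%, against 13.9% in the 37 genes. Between these 2 sets of genes the share of RAC adenosines listed was therefore not higher in the 37 genes.

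Neighbouring sites stood close together. The median distance between consecutive sites was 10 nt in the 37 genes and 14 nt in the others, and 200 of 997 distances were at most 3 nt (20.1%, against 9.34% over all genes). Genes with 20 to 24 sites had the same median distance, 10 nt, and 14.3% of their distances were at most 3 nt. In 111 of the 200 close pairs of the 37 genes the intervals of the levels did not overlap (55.5%, against 63.0% of the close pairs of all genes). The levels of 34 pairs differed by more than 50 points (17% of the close pairs of the 37 genes, against 24.5% of those of all genes), and the median difference was 6.76 points in the 37 genes and 22.1 points over all genes. The widest difference was in HEMB1, where UGAGA at 2.39% (1.72% to 3.33%, 1420 reads) stood 2 nt before AGACU at 99.0% (98.3% to 99.4%, 1472 reads), and the CUAUU site 3 nt further on had 3.44% (2.66% to 4.45%, 1626 reads). In ATB BETA (AT1G17720), a regulatory subunit of protein phosphatase 2A, GAACA at 92.8% (221 reads) lay 2 nt from ACACC at 4.25% (212 reads). Summed over 51 nt of transcript centred on a site, levels had a median of 1.03 unconverted adenosines per molecule in the 37 genes and 0.924 in the others. The highest sum in the 37 genes was 4.11, in AT3G42050. A sum above 3 occurred at 7 sites (0.677%) of the 37 genes and at 0.948% of the sites of the others. The authors had removed reads with more than 3 unconverted adenosines, which limits such sums, so these shares do not describe the molecules alone. How far the filter lowered the sums was not tested.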

How the data were processed

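Polyadenylated seedling RNA of 3 replicates was converted and sequenced by the authors. Per the labels and the methods, they trimmed reads with Cutadapt, mapped them to TAIR10 with hisat2-3n, which allows for converted bases, and removed reads with more than 3 or more than a fixed share of unconverted adenosines, or with over 5% mismatches, which can lower the depth and level of crowded sites; versions are not given in the sources used here. The deposited table holds raw counts per adenosine (depth and unconverted reads, replicates pooled) and the authors' binomial p-value against a 1% background, listed under 0.001 at 20 or more reads. The p-value was used only for a stricter threshold. No other sample column was present (0 unused).

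Levels, Wilson 95% intervals and counts were computed with Python 3.11.15, pandas 2.3.3, numpy 2.4.6 and scipy 1.17.1, and figures with matplotlib 3.10.9. They were tested on simulated data. Regions and distances came from the RefSeq transcript with the longest coding sequence (ties to the longer transcript). All 1034 sites were adenosine in the reference, and 1015 contexts were identical to it. Gene names are those of RefSeq, which gives a symbol for 20 of the 37 genes. With pooled replicates no test between groups was possible.

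All 37 members were counted. Named with values were the 15 genes with most sites, the 5 highest and 5 lowest mean levels, genes with 10 or more coding-sequence sites or non-coding, the 3 shortest and 3 longest spans, the 3 highest and 3 lowest depths, and the deepest, highest and lowest site. Members and lists were chosen with earlier results of these data known. The role groups, the purine runs, the 1.5-fold limit, the close pairs, the unlisted stretches and the other genes named were chosen after values were seen.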

Additional observations from a re-analysis of the deposited data

How the results depend on the processing

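The 37 genes became 15 with a depth of at least 100 reads, 24 with a p-value under 1e-04, 259 with 20 or more sites, 8 with 30 or more sites and 0 with a level of at least 20%, and their sites 398, 654, 5765, 263 and 0. With 0 genes left, the last setting gave no other value. The mean level of 24.9% was 23.7% and 19.4% with depths of at least 50 and 100 reads, 27.6% with the stricter p-value, 25.4% without shared contexts, 27.9% and 22.3% with 20 and 30 sites, and 16.6% as summed unconverted reads over summed depths. The share above 50% was 13.3% at 100 reads, 20.3% with the stricter p-value, 20.8% with 20 sites and 14.4% with 30. The 3′ UTR share was 82.1%, 91.2%, 91.5% and 69.7% under those same settings. The RAC share was 30.7% with the stricter p-value and 29.5% with 20 sites, and the median distance was 9 nt at both depth minima. Without the 5 genes with 10 or more coding-sequence sites, a setting chosen after seeing the data, the mean level was 27.3%, the share above 50% 20.3% and the 3′ UTR share 94.5%. The causes of these shifts were not tested. Using the longest coding transcript left the 3′ UTR share within its interval.

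No paired analysis was possible because the deposited counts pool the replicates, and leaving out a replicate was not run for the same reason. Depth limits the low end: 58 reads, the median of RPP4, allow no listed level under 8.62%.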

Other observations

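The genes annotated as vacuolar H+-ATPase subunits were listed as a family after 4 of them were seen among the 37 genes. Of 26 such genes, 25 had a listed site, with a median of 17 sites, against 7 over all genes with a site. At least 10 sites were found in 23 of the 25 (92.0%, against 34.4% of all genes with a site). These 23 include the 4 genes that led to the choice of the family. Depth was not matched either: gene median depths in the family ran from 30 reads in VATG3 to 2183 reads in TUF. Most of the family was read more deeply than other genes. Only VATG3, VHA-A1 (82 reads) and VHA-A2 (92.5 reads) were below 128 reads, the median in genes with 10 to 14 sites. The part of depth in the site numbers of the family was not tested. The range within the family was wide: DET3, the C subunit, had 22 sites with a mean of 34.4% and a highest site of 99.2%, VHA-A2, a paralog of VHA-A3, had 16 sites with a mean of 48.3% at a median depth of 92.5 reads, and VAB2, a paralog of VAB3, had 1 site at 3.31% and an annotated 3′ UTR of 38 nt.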
